A study of Mus musculus with 6 samples.

Results

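The sebaceous gland cells described here were selected by their transcripts from single-cell RNA-seq libraries of mouse dorsal skin. A cell was taken when it had at least 6 unique molecular identifiers (UMIs, each standing for 1 captured transcript molecule) summed over Cidea, Elovl6, Fa2h and Elovl3 and when these made at least 6 of every 10000 of its UMIs. It also had 500 to 7000 detected genes and at most 10% of its UMIs from mitochondrial genes. The rule found 956 of the 55177 cells within these limits, or 1.73%, from 61031 deposited barcodes.

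The libraries came from wild-type FVB males aged 55 to 57 days whose dorsal skin was shaved and waxed, which starts a new hair cycle. Skin was taken at 0, 4 or 16 h or at 2, 4 or 6 d after depilation, and each of these 6 time points was 1 library, prepared with a 10x Genomics 3′ kit from cells of 2 mice that were dissociated separately and mixed in equal numbers. The mice of a library could not be separated, so there was no replicate within a time point and no test between any pair of time points was possible. All intervals below are exact 95% intervals that cover counting error only, and where a run of values is given for the libraries, it follows the order of time. Time cannot be told apart from the mice and the preparation of each library.

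The sebaceous gland opens into the upper hair follicle. Its basal cells divide, move inwards, fill with lipid droplets and finally burst, releasing their whole content as sebum, a mode of release called holocrine secretion. Sebum is made of triglycerides, wax esters, cholesterol and sterol esters, so that the maturing cell, the sebocyte, carries high levels of enzymes that make, lengthen, desaturate and esterify fatty acids, and the nuclear receptor Pparg is the best known regulator of this programme. Of the genes in the rule, Cidea codes for a protein that fuses lipid droplets, Elovl6 and Elovl3 code for fatty acid elongases and Fa2h for the fatty acid 2-hydroxylase.

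The 3 promoters shown here belong to genes on which the description turns: Elovl6 from the rule, Acly, whose level followed that of the rule genes most closely, and Plin2, the droplet coat gene that stood apart at 4 h. Each is the 250 bases before the start of the gene in RefSeq on the build GRCm38.p6, written 5′ to 3′ on the strand of the gene, and the capitals mark AGGTCA on either strand, the core that nuclear receptors such as Pparg bind. Elovl6 lies at chr3:129532136-129532385 on the plus strand, Acly at chr11:100528001-100528250 on the minus strand and Plin2 at chr4:86670060-86670309 on the minus strand.
Elovl6: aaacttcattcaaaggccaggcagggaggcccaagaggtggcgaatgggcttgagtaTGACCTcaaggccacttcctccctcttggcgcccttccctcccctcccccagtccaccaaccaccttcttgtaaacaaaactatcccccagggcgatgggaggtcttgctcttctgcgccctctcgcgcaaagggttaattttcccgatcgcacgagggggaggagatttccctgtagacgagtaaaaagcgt
Acly: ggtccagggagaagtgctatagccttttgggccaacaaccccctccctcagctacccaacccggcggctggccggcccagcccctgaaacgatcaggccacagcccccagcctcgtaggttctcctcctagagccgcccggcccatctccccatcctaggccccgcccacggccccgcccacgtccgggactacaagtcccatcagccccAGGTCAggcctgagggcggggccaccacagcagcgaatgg
Plin2: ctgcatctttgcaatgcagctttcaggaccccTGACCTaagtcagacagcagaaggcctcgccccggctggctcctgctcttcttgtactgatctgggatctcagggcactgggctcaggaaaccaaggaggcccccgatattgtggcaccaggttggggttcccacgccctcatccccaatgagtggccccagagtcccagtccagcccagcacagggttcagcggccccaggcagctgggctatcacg
AGGTCA occurred on either strand in 4335 of 27025 RefSeq promoters (16.0%), taken there from 250 bases before to 50 after the start. It occurred in 4 of the 14 promoters (28.6%) that could be matched among the rule genes and the 20 genes with the highest ratio to other cells given below. The sterol element TCACNCCAC occurred in 330 of all promoters (1.22%) and in 0 of these 14. Each promoter shown above holds 1 AGGTCA, unlike most of the promoters counted here. A match describes the letters only, and binding was not measured.

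The number of sebaceous gland cells differed widely between the libraries. There were 9, 93, 149, 213, 343 and 149 of them from 0 h to 6 d. As a share of the cells within the limits, this was 0.130% at first (0.0594 to 0.247), then 1.21% (0.981 to 1.48), 1.71% (1.45 to 2.00), 2.23% (1.95 to 2.55), 2.76% (2.48 to 3.07) and finally 1.5% (1.27 to 1.76). The share was lowest at 0 h and highest at 4 d, and the intervals of 2 d and 4 d overlapped, as did those of 16 h and 2 d and those of each pair among 4 h, 16 h and 6 d. How many cells of a gland survive dissociation and capture was not measured, so these shares are not the sizes of glands.

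**Figure D1:**
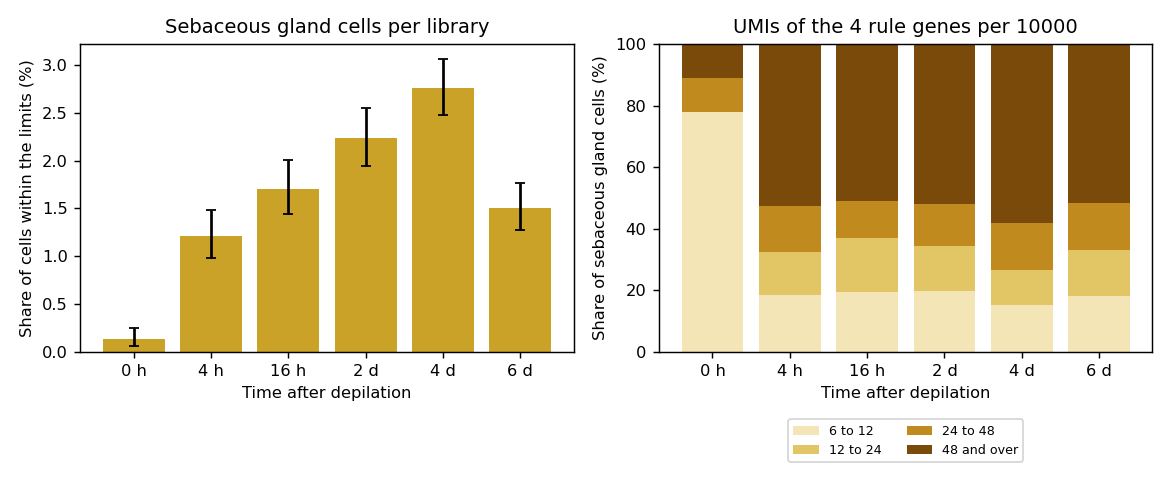
Left, sebaceous gland cells as a share (%) of the cells within the limits in each of the 6 libraries, with exact 95% intervals. Right, how the selected cells of each library divide over 4 ranges of rule gene UMIs per 10000: from 4 h to 6 d between 51.0% and 58.3% of the cells lie in the highest range, whereas at 0 h it holds 1 of 9 cells.

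The mitochondrial limit took out a larger share of these cells than of others in 5 of the 6 libraries, most of all at 0 h and 2 d. Of the cells that met the gene rule at 2 d, 161 of 374 (43.0%) were over the limit, against 10.3% of the other cells of that library. In the earlier libraries 9 of 18, 4 of 97 and 27 of 176 were over it (50%, 4.12% and 15.3%), against 3.82%, 1.88% and 4.59% of the other cells. In the later ones it was 34 of 377 and 7 of 156 (9.02% and 4.49%), against 6.31% and 4.66%. With a limit of 20%, the share at 2 d was 3.26%, above the 2.82% at 4 d, so the order of these libraries depended on the limit.

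The selected cells were deeper than the others, which the rule sets in part, since a cell near 6 per 10000 needs many UMIs to reach 6 rule UMIs. The lowest depth was 5686 UMIs in cells with 6 to 12 rule UMIs per 10000 and 780 UMIs in those at 48 and over. The median depth had the opposite order, 11225 UMIs at 6 to 12 and 18201.5 UMIs at 48 and over. The median UMI count of the selected cells was 15223, 21025, 23491, 13987, 11793 and 12952 from 0 h to 6 d, where that of the other cells was 8619.5, 8499.5, 10696, 7582, 6221 and 7104. The UMIs of the selected cells summed to 148610 at 0 h and to between 1996881 and 4518736 in the other libraries. Scrublet, which scores how much a barcode looks like a mixture of 2 cells, placed 167 of the 956 cells (17.5%) among the predicted doublets, compared with 9.43% of all cells, and 789 remained without them. By library this was 0, 1, 23, 43, 73 and 27 cells in order of time. No cell barcode was shared between selected cells of different libraries. Among all cells within the limits, 735 shared a barcode with a cell of another library. The selected cells were compared in this way only with each other, not with the other cells of the other libraries.

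The 0 h library went against the label of these cells. Of its 9 cells, 7 had between 6 and 12 rule UMIs per 10000, 1 had 42.6 and 1 had 157. A single cell carried 73.9% of the Scd1 UMIs and 73.6% of the Elovl6 UMIs of the sum. In the same sum Krtdap stood at 19945 CPM and Lor at 8317 CPM (counts per 1000000, a gene's UMIs scaled to the total of the summed cells), both of them genes of the cornifying epidermis. Values at 0 h are therefore given for description and were left out of the tests over time.

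Within the range of the rule, the weakest and the strongest cells differed in how many of its genes they held. All 4 genes were detected in 68.1% of the cells, in 95.5% of the 514 cells at 48 per 10000 and over, and in 9.21% of the 76 cells at 6 to 8. The 76 cells just inside the limit had a median of 8.5 rule UMIs. The 92 cells just outside it, with 4 to 6 per 10000, had a median of 8 rule UMIs, of which 75.5% were Elovl6, and 43 of them held Elovl6 alone. The levels of the 4 genes were what chose the cells and are given as description only. Cidea stood at 935, 2759, 1839, 1485, 2159.9 and 1849 CPM from 0 h to 6 d. Elovl6 stood at 2799, 4357, 4028, 7365, 5859 and 5644 CPM from 0 h to 6 d. Both were lowest at 0 h, Cidea was highest at 4 h and Elovl6 at 2 d. Fa2h ranged from 868 to 1189.6 CPM and Elovl3 from 768 to 1198 CPM between 4 h and 6 d, with 316 and 229 CPM at 0 h.

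The other markers fixed for the gland were high in the same cells. Scd1, the desaturase that makes oleic from stearic acid and without which the gland atrophies, stood at 3042, 6122, 4753, 6572, 5819.8 and 4938 CPM from 0 h to 6 d. In all other cells it was at 57.8 CPM when the libraries were pooled. Mgst1, a microsomal glutathione transferase, stood at 2113, 4412, 3629, 4091, 4544 and 3555 CPM from 0 h to 6 d, compared with 57.2 CPM in the other cells. Every library had both genes far above the other cells, and even the 0 h sum, which was the lowest for both, exceeded them.

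Plin2, the protein that coats lipid droplets in most cells, stood at 1527, 4526, 1612, 1475, 1909 and 1822 CPM from 0 h to 6 d. The 4 h library was thus well above the other libraries. Pparg reached 26.9, 60.6, 171, 114, 159 and 116 CPM from 0 h to 6 d, with 3.26 CPM in the other cells. Mc5r, the melanocortin receptor through which sebum secretion is regulated, reached 26.9, 149, 200.4, 211, 186 and 130.3 CPM from 0 h to 6 d, with 1.84 CPM in the others. Awat2, a wax synthase, was detected in 45.4% of the selected cells, compared with 0.187% of the T cells described below. For Pparg and Mc5r, the lower bound of the interval was above the level of the other cells in each library.

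Detection in single cells gave the same picture. Of the 956 cells, 98.6% had a Scd1 UMI, 98.2% a Mgst1 UMI, 97.2% a Plin2 UMI, 76.8% a Mc5r UMI and 72.5% a Pparg UMI, at a median depth of 14866.5 UMIs. T cells, which should lack these genes and were taken as 3202 unselected cells with at least 3 UMIs of Cd3d, Cd3e, Cd3g and Trdc, gave 10.9%, 6.62%, 6.81%, 0.593% and 0.625% at a median depth of 2415 UMIs. When every cell was thinned at random to 1000 UMIs, Scd1 was detected in 79.9% of sebaceous gland cells and in 3.37% of T cells, and Pparg in 12.4% and 0.159%. Awat2 was detected after thinning in 5.15% of sebaceous gland cells and in 0% of T cells. The shares in sebaceous gland cells were above that background for each of these genes. Krt79 cells, described below, had a median depth of 8785 UMIs. Of them, 35.8% had a Scd1 UMI, 34.6% a Mgst1 UMI, 29.2% a Plin2 UMI, 1.73% a Mc5r UMI and 2.43% a Pparg UMI. After thinning, Scd1 was detected in 5.84% of Krt79 cells and Pparg in 0.411%. Of the rule genes, Elovl6 had the highest share in T cells, 23.5% before and 9.29% after thinning, compared with 1.37% and 0.350% for Cidea.

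**Figure D2:**
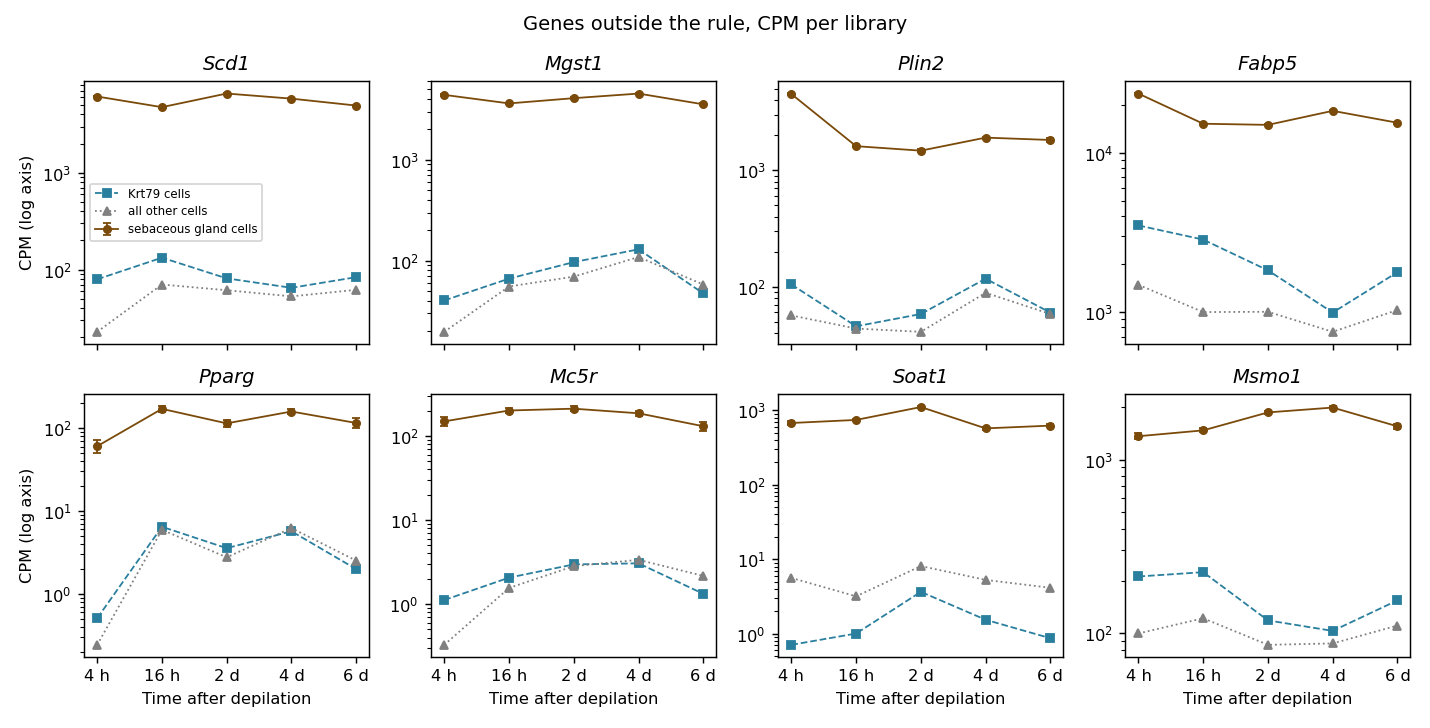
CPM (log axis) of 8 genes outside the rule at 5 time points (4 h to 6 d), for sebaceous gland cells with exact 95% intervals, Krt79 cells and all other cells. In each panel the sebaceous gland cells lie above both other groups at every time; Plin2 is at 4526 CPM at 4 h and between 1475 and 1909 CPM afterwards.

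Across the transcriptome, sebaceous gland cells were compared with all other cells as the difference of log2(CPM + 1) in each library, taken as the median over the 6 libraries. The rule was set by this contrast, so the ratios are a description with no test. Of 1397 genes with at least 100 CPM in the pooled selected cells, 392 (28.1%) were higher by 1 or more on this scale and 100 (7.16%) were lower by 1 or more. Over all 23672 genes with a UMI the median difference was -0.03, and 8.17% were higher in all 6 libraries. Among the genes at 100 CPM, Fa2h, Elovl3, Cidea and Elovl6 ranked 1, 2, 3 and 6 by this measure, Scd1 14, Mgst1 19, Mc5r 25, Plin2 27 and Pparg 35.

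The gene outside the rule with the highest ratio was Far2, which codes for the reductase that turns fatty acyl-CoA into the fatty alcohols of wax esters. It stood at 141, 648, 810.5, 822, 596 and 557 CPM from 0 h to 6 d, against 1.5 CPM in the other cells, with a median difference of 7.98. Cers4, a ceramide synthase, was higher by 7.04 and Soat1, which esterifies cholesterol, by 6.92. Acacb, the acetyl-CoA carboxylase at the outer mitochondrial membrane, was higher by 6.83, the fatty acid receptor Cd36 by 6.64, the carboxylesterase Ces1d by 6.61 and Acoxl, which resembles the acyl-CoA oxidases, by 6.60. The 20 genes with the highest ratios also included Gm35986, Scd1, Tmem45b, Clstn3, Adig, Paqr7, Mgst1, Mettl7b, Lhpp, Clmp, Acss2 and Tmem56, with differences from 5.64 for Tmem56 to 6.89 for Gm35986. Gm35986 is an antisense gene at chr3:129527467-129532388 whose start overlaps that of Elovl6 at chr3:129532355-129638495, and since the strand setting of the counting is not given in the sources used here, its reads could not be told apart from those of a gene in the rule. Each of these genes was higher in the selected cells in all 6 libraries.

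Genes of fatty acid synthesis were high as a group. Of 12 listed genes, 8 were higher in all 6 libraries, with a median difference of 2.96 over all 12, and 7 reached 100 CPM. Fasn, the fatty acid synthase itself, stood at 323, 943, 614, 583, 778 and 595 CPM from 0 h to 6 d, with 46.6 CPM in the other cells. Acly, the enzyme that releases acetyl-CoA from citrate, stood at 249, 388, 389, 588, 469.8 and 349 CPM from 0 h to 6 d, with 50.4 CPM in the others. Fasn was highest at 4 h, whereas Acly was highest at 2 d. Slc25a1, which carries citrate out of the mitochondrion, stood at 405, 399, 1059.7, 533 and 498 CPM from 4 h to 6 d, so it too was highest at 2 d. Me1, a source of NADPH, was higher by 2.95 than in other cells, Mid1ip1, an activator of acetyl-CoA carboxylase, by 3.36 and Acss2, which makes acetyl-CoA from acetate, by 5.66.

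Of the 23 listed genes of elongation, desaturation and hydroxylation, 3 are rule genes and were high by selection. The remaining 20 summed to 14446 CPM in the pooled cells, compared with 1393 CPM in the others, and 8 of them were higher in all 6 libraries. Elovl4, which makes very long chains, stood at 2843, 2159.6, 2269, 1451 and 2982 CPM from 4 h to 6 d. The microsomal elongation cycle beyond the elongases was represented by Hsd17b12 at 1518 CPM, Hacd2 at 1332 CPM and Tecr at 2282 CPM in the pooled cells, with 88.4, 52.1 and 297 CPM in the others. Cyb5a, an electron donor for desaturases that is widely expressed, differed by 0.36 only.

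Among genes of uptake, binding and activation, Fabp5, the fatty acid binding protein of skin, stood at 7853, 23543, 15226, 14978, 18348 and 15446 CPM from 0 h to 6 d. The other cells held 941 CPM and Krt79 cells, described below, 1861 CPM. The transporter Slc27a4 was higher by 4.65 than in other cells, the acyl-CoA synthetase Acsl5 by 3.30 and the lipoprotein lipase Lpl by 5.07. Dbi, the acyl-CoA binding protein, was low, at 149.8 CPM in the selected cells and 791 CPM in the others. Of the 17 listed genes, 7 were higher in all 6 libraries, and the median over all 17 was -0.04, close to that over all genes.

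Esterification and storage followed. For glycerolipid, wax and sterol ester synthesis, 7 of 22 listed genes were higher in all 6 libraries and 6 reached 100 CPM: Soat1, Far2, Gpam, Agpat2, Dgat1 and Dgat2. Gpam, which begins glycerolipid synthesis, was higher by 3.67 and Dgat1, which completes triglycerides, by 3.51. Dgat2, the other enzyme of that last step, was at 103 CPM here, 144 CPM in Krt79 cells and 48.1 CPM in all other cells, so it was not higher than in Krt79 cells. Of 18 droplet proteins and lipases, Cidea left out, 7 were higher in all 6 libraries. Mgll, the monoglyceride lipase, stood at 2657, 1862, 1872, 1968 and 1461 CPM from 4 h to 6 d, compared with 58.1 CPM in other cells. Fitm2 and Bscl2, which act in droplet formation, were higher by 3.09 and 2.24.

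Cholesterol synthesis was the list with the widest coverage. Of 24 listed genes, 20 were higher in all 6 libraries, 19 reached 100 CPM, and the median over all 24 was 3.08. Msmo1, a sterol methyl oxidase, stood at 1362, 1471, 1866, 1990.2 and 1552 CPM from 4 h to 6 d, with 97.5 CPM in the other cells. Fdps, which makes farnesyl diphosphate, stood at 1412, 1125, 1127, 1515 and 1158 CPM from 4 h to 6 d, with 213 CPM in the others. Msmo1 was lowest at 4 h and both were highest at 4 d. Msmo1 was higher than in other cells by 3.78, Mvd, a decarboxylase of the mevalonate steps, by 4.38 and Sqle, the squalene epoxidase, by 2.29.

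Genes of fatty acid oxidation and the peroxisome were also higher, in 20 of 27 listed genes in all 6 libraries, with a median of 1.91. Crat, the carnitine acetyltransferase, was at 178 CPM compared with 4.81 CPM in other cells, and Pex11a, which acts in peroxisome division, at 158 compared with 9.08 CPM. Hsd17b4 and Decr1 were higher by 3.45 and 3.44, Hadha and Hadhb of the mitochondrial trifunctional protein by 1.33 and 1.15. Among 22 redox genes, 10 were higher in all 6 libraries. Gsta4, a glutathione transferase for lipid aldehydes, was higher by 4.29, Idh1, a cytosolic source of NADPH, by 3.22, and Gpx4, which reduces lipid peroxides, by 2.16. Gpx1 differed by -1.12 on the same scale.

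Of the regulators, Pparg stood out. Srebf1, the regulator of fatty acid synthesis, was at 124 CPM and 28 CPM in other cells, Srebf2, the regulator of cholesterol synthesis, at 108 and 70.5 CPM, and Cebpa at 236 and 87 CPM. Klf4 was low, at 144 CPM where the other cells held 972 CPM. Only 5 of the 18 listed regulators were higher in all 6 libraries. Of the hormone receptors and steroid enzymes, Srd5a1, which makes dihydrotestosterone, stood at 145, 64.7, 90.4, 119.5 and 105 CPM from 4 h to 6 d, with 22.2 CPM in the other cells, and was higher by 2.03.

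**Figure D3:**
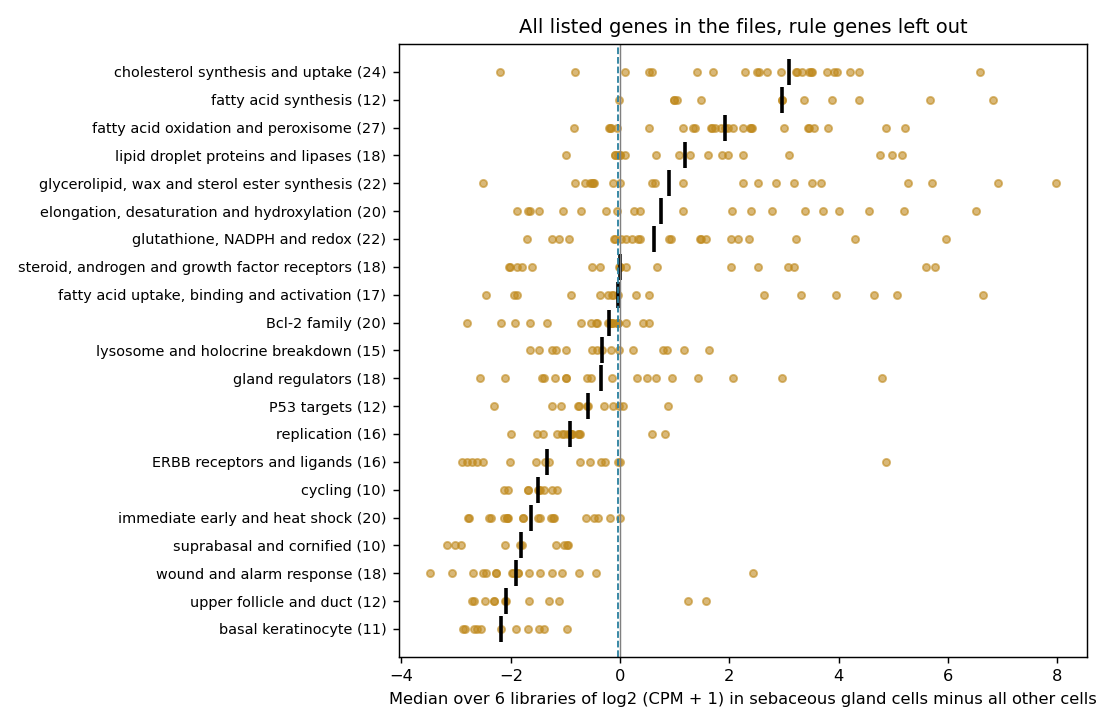
Each point is 1 listed gene in the files, rule genes left out; x, median over 6 libraries of log2(CPM + 1) in sebaceous gland cells minus all other cells; y, gene list with the number of genes. Black ticks are list medians, the grey line is 0 and the dashed line is the median of -0.03 over 23672 genes. Medians run from -2.18 (basal keratinocyte) to 3.08 (cholesterol), the lipid lists hold genes on both sides, and uptake and binding (-0.04) lies at the median of all genes.

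Keratinocyte genes were lower than in the other skin cells. None of the 11 basal, 10 suprabasal or 12 upper follicle genes was higher in all 6 libraries. Krt5 stood at 164, 1073, 918, 560.3 and 548 CPM from 4 h to 6 d in the selected cells, with 4348 CPM in the others, and was lowest at 4 h. Krt14, its partner keratin, was also below the other cells, at 4612 CPM compared with 11901 CPM. Krt10, the keratin of spinous cells, was at 632 compared with 4619 CPM. Krt79, a keratin of the upper follicle and the sebaceous duct, was higher, at 1097, 2803, 1864, 1866, 1824 and 1562 CPM from 0 h to 6 d, which was 1.57 above the other cells on the log2 scale. It was above them in 5 of the 6 libraries, and at 4 d the other cells held 1878 CPM.

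By contrast with Krt79, its companions in the duct list, Cst6 and Defb6, differed by -2.09 and -2.31. Nevertheless 829 of the 956 cells (86.7%) also met a rule of the same form on Krt79, Cst6 and Defb6. The 9989 cells that met only this rule are called Krt79 cells here and served as the comparison for the time course. They held 3098 CPM of Krt79, 14868 CPM of Cst6 and 95.5 CPM of Scd1.

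Immediate early and heat shock genes, many of which rise during dissociation, were lower as well. All 20 were detected, none was higher in all 6 libraries, and the median was -1.64. Fos was at 769.8 CPM in sebaceous gland cells and 3093 CPM in the others, Atf3 at 321 and 1937 CPM. Hspa8, a constitutive chaperone, differed by -0.18. Of 18 wound and alarm genes, 2 reached 100 CPM, Nfkbia and Krt16, and both were lower.

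Markers of other skin cells were scarce. The 7 T cell markers summed to 32.9 CPM, compared with 322 CPM in the other cells, with Cd3g highest at 12 CPM. The 6 Langerhans markers summed to 127 CPM against 698, led by Cd74 at 67.1 CPM. The 6 fibroblast markers summed to 4.38 against 28.9 CPM, led by Dcn at 2.16 CPM, and 1 of them had no UMI. The 4 endothelial markers summed to 1.14 against 2.42 CPM, led by Pecam1 at 0.699 CPM. These sums were below those of the other cells in each case.

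The melanocyte, inner root sheath and Langerhans sums were uneven over the libraries. The 6 melanocyte markers, led by Dct, summed to 174 CPM at 4 d and to at most 5.30 CPM in any other library. The 5 inner root sheath markers summed to 25.7 CPM at 4 d and 88.4 CPM at 6 d and to at most 4.51 CPM before. Krt28 led them when the libraries were pooled. Langerhans markers summed to 347 CPM at 6 d. Of the 8 adipocyte markers, 3 had no UMI, and Lpl made 354 of their sum of 355 CPM, so that the genes which define fat cells were at or near 0. The part of the uneven sums in the time course was not tested.

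Markers of the outer bulge summed to 33.3 CPM, led by Postn at 18 CPM, compared with 220.2 CPM in the other cells. The spinous and granular markers, led by Krtdap, summed to 2133 CPM, compared with 11890.4 CPM in the others.

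The level of the rule genes differed widely above the limit of 6 per 10000, and many other genes differed along this range. Cells were pooled by library in 4 ranges (6 to 12, 12 to 24, 24 to 48, and 48 and over per 10000, with 174, 131, 137 and 514 cells). The ranges were cut from the values of the rule, so the levels in them are a description. Scd1 averaged 591, 1353, 2532 and 8182 CPM over the 5 libraries from 4 h to 6 d, and was higher at every step in each of them. Fabp5 averaged 1481, 2417, 5933 and 26118 CPM, and Soat1 32.5, 94.5, 290.1 and 1122 CPM.

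Several genes were far higher in the top range than below it. Awat1, a wax synthase, averaged 6.28, 6.46, 1.51 and 102 CPM, although at 2 d it stood at 29.7, 28.2, 0 and 84.2 CPM and was thus also found in the lowest ranges. Elovl4 averaged 176, 364, 53.6 and 3666 CPM. Mgll, Acacb, Slc27a4 and Crat were also concentrated in the highest range. Among the 5 genes whose log level over the 20 sums of library and range was most like that of the 4 rule genes were Acly, Rdh11, Tmem45b and Scd1, with Pearson r between 0.97 and 0.98 among 1393 genes compared. The 20 sums share libraries and their order along the rule, so no p is given.

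Other genes were lower towards the top of the range. Krt17, a keratin of the hair follicle, averaged 1277 CPM at 6 to 12 and 144 CPM at 48 and over. By library, its log2 ratio of the highest to the lowest range ran from -6.24 to 0.28, so it was not lower at the top in all of them. Predicted doublets held between 29.0% and 83.0% of the Krt17 UMIs in the libraries from 4 h to 6 d. The proliferation gene Mki67 averaged 117, 53.5, 28.9 and 8.04 CPM. Pparg was highest in a middle range in each library from 4 h to 4 d. Only at 16 h were the intervals of the middle ranges apart from that of the top range. At 4 h, 2 d and 4 d they overlapped it. At 16 h it stood at 185, 249, 224 and 138 CPM in the 4 ranges and at 4 d at 98, 207, 179 and 161 CPM, with the middle ranges on top. At 6 d it was higher at each step, at 86.1, 99.2, 114 and 126 CPM, but the intervals of neighbouring ranges overlapped.

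The 4 h library had its own pattern along the range. Plin2 stood there at 3309, 4121, 5085 and 4733 CPM in the 4 ranges, and all 4 values were above every value of the other libraries, which ran from 815 to 2218 CPM. Krt5 was at 297, 44.9, 30 and 183 CPM at 4 h, compared with 2234, 2440.4, 1246 and 365 CPM at 16 h. Mki67 had no UMI at 4 h in the lower 3 ranges and stood at 5.44 CPM in the highest, whereas at 16 h it was at 204, 87.6, 6.59 and 4.92 CPM.

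**Figure D4:**
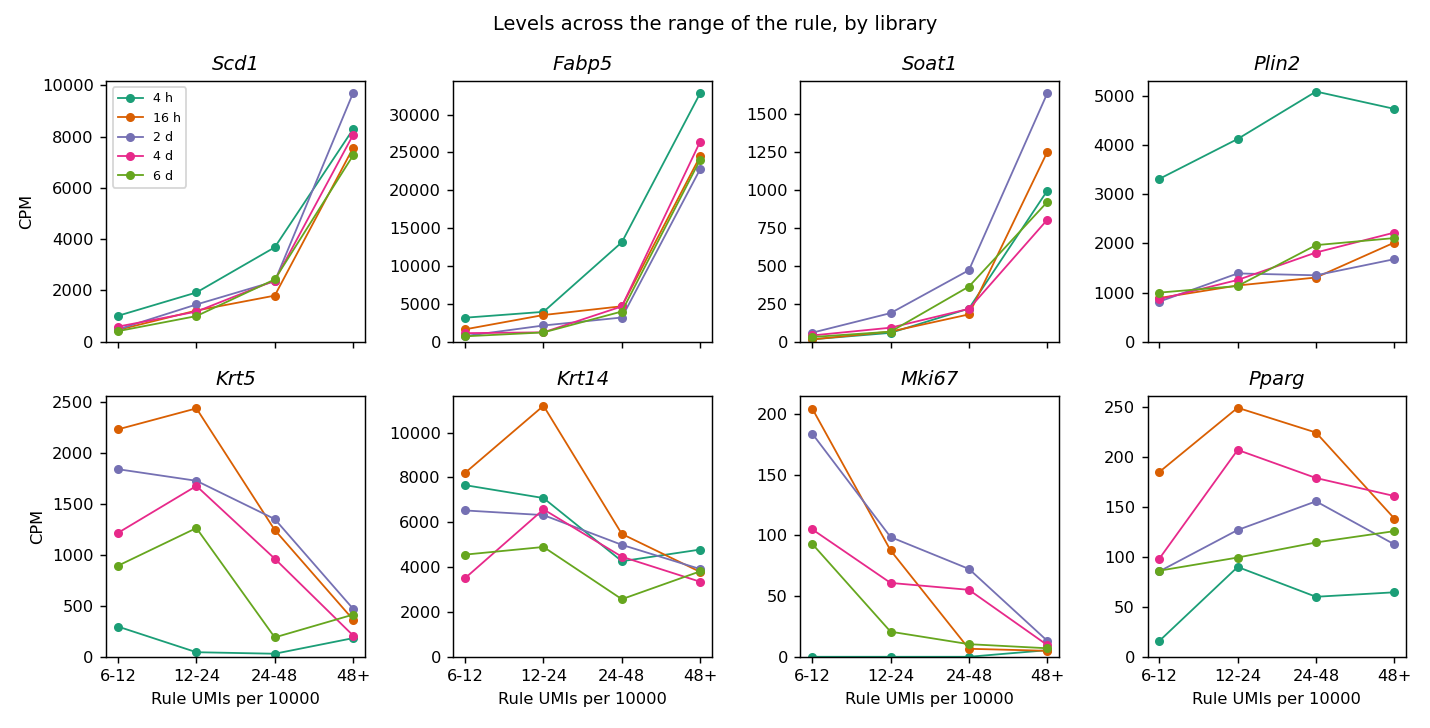
CPM of 8 genes in 4 ranges of rule gene UMIs per 10000, 1 line for each of 5 libraries (4 h to 6 d). Scd1, Fabp5 and Soat1 are highest in the last range in every library, Plin2 is above the other libraries at 4 h in all 4 ranges, and Krt5 and Mki67 are low at 4 h where other libraries have their highest values.

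Dividing cells were counted by their transcripts. After thinning to 2000 UMIs, cells with 2 or more UMIs from 10 mitotic markers (Birc5, Cenpa, Cenpf, Hmgb2, Mki67, Nusap1, Prc1, Top2a, Tpx2 and Ube2c) were called cycling. Thinning left out 1 to 3 shallower cells in each library after 0 h. At 0 h, 2 of 9 cells were cycling. The share was 4.35% at 4 h (1.20 to 10.8) and, in the libraries that followed, 20.3% (14.1 to 27.7), 17.5% (12.7 to 23.4), 10.6% (7.53 to 14.4) and 10.1% (5.78 to 16.2). The interval at 4 h lay below those at 16 h and 2 d, but overlapped both without predicted doublets (1.21 to 10.9 at 4 h, 9.33 to 22.5 and 9.81 to 21.1). Without thinning the shares were 32.3%, 65.1%, 55.4%, 40.8% and 36.2% from 4 h to 6 d.

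Except at 4 h, most cycling cells were at the low end of the rule. Among cells with 6 to 24 rule UMIs per 10000, the share was 0 of 30 at 4 h (exact interval up to 11.6%) and 49.1%, 35.6%, 20.9% and 22.4% from 16 h to 6 d. Among cells at 24 and over it was 6.45%, 3.23%, 7.97%, 6.83% and 4.04% from 4 h to 6 d. Without predicted doublets, the share of all sebaceous gland cells was 4.40%, 15.1%, 14.8%, 6.37% and 9.09%. Krt79 cells gave 5.49%, 17.9%, 18.8%, 21.2% and 16.1% at the same times and were likewise lowest at 4 h.

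The change over time was tested across all genes with the edgeR quasi-likelihood F test on the summed counts of the 5 libraries with at least 20 sebaceous gland cells, with a smooth curve of hours. Of 10227 genes tested, 7 passed a Benjamini-Hochberg adjusted p of 0.05, or 0.0684%, and 748 had an unadjusted p below 0.05. All 7 had a positive linear trend, among them Cyp17a1, Cyp2g1, S100a3, Psors1c2, Krt25 and Krt73. With 5 libraries and 2 residual degrees of freedom, the error of the fit came from the departures of single libraries from the curve. Of 301 genes tested from the 21 gene lists, 0 passed in edgeR and 41 had an unadjusted p below 0.05. The DESeq2 likelihood ratio test, which called 54 of 8640 genes with an adjusted p (0.625%), called 8 of 285 listed ones, Agpat2, Dmkn, Flg, Hspa1a, Hspa1b, Krt77, Lgals3 and Scd2, the last of which is named here after its values were seen. Of the inner root sheath markers, 3 were tested and 2 rose, Krt25 and Krt73. At 4 d, predicted doublets held all 34 Krt73 UMIs and 1 of 18 Krt25 UMIs. At 6 d, a single cell held 97.4% of the Krt25 UMIs and a single cell all of the Krt73 UMIs.

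Cyp17a1, the steroid hydroxylase and lyase on the path to androgens, lies at chr19:46667165-46673172 and rose. It stood at 4.51, 2.51, 25.3, 97.8 and 117 CPM from 4 h to 6 d, with exact intervals of 2.06 to 8.56 at 4 h and 103 to 133 at 6 d. The libraries from 2 d were above those of 4 h and 16 h without overlap of their counting intervals. The fitted trend was 0.98 log2 per day (edgeR adjusted p = 0.0325), and it did not pass without 2 d, 4 d or 6 d (edgeR adjusted p from 0.458 to 0.642). Cyp17a1 also did not pass with time as log2(hours + 1), as ranks or as a linear trend alone (edgeR adjusted p from 0.0875 to 0.695). Nor did it pass with all 6 libraries or without the robust option of the fit (edgeR adjusted p = 0.100 and 0.0653). A Cyp17a1 UMI was found in 4 of 93, 9 of 149, 33 of 213, 112 of 343 and 63 of 149 cells, so the rise was spread over many cells. In Krt79 cells it stood at 2.34, 1.32, 3.91, 5.02 and 4.79 CPM from 4 h to 6 d. In the cells at 24 rule UMIs per 10000 and over it stood at 5.92, 2.81, 33.2, 115 and 146 CPM from 4 h to 6 d.

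Cyp2g1, a cytochrome P450 known from olfactory mucosa, lies at chr7:26808892-26821205 and stood at 12.5, 13.4, 64.2, 135 and 94.1 CPM from 4 h to 6 d. It had a UMI in 6 of 93, 12 of 149, 41 of 213, 42 of 343 and 15 of 149 cells, so the share of cells with a UMI was highest at 2 d (19.2%) and was 10.1% at 6 d. The sum of all other cells was at or below 0.351 CPM in each of these libraries. The trend was 0.58 log2 per day (edgeR adjusted p = 0.0224). Without 2 d, 4 d or 6 d it was 0.60, 0.50 and 0.96 but did not pass (edgeR adjusted p from 0.286 to 0.585). With time as log2(hours + 1), as ranks or as a linear trend alone, Cyp2g1 did not pass either (edgeR adjusted p from 0.154 to 0.695). The same held with all 6 libraries and without the robust option of the fit (edgeR adjusted p = 0.267 and 0.0653). At 6 d, 1 cell held 51.5% of the Cyp2g1 UMIs, and without it the level was 46.4 CPM.

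S100a3, Psors1c2, Krt25 and Krt73 are genes of hair or cornified layers, and each rested on a single cell at 6 d. The cell with most UMIs of a gene held 97.9% of them for S100a3, 99.5% for Psors1c2, 97.4% for Krt25 and all of them for Krt73. Without that cell S100a3 was at 7.18 CPM at 6 d instead of 341, and Psors1c2 at 0.478 instead of 95.6. In the cells at 24 per 10000 and over, Psors1c2 had no UMI at 6 d.

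**Figure D5:**
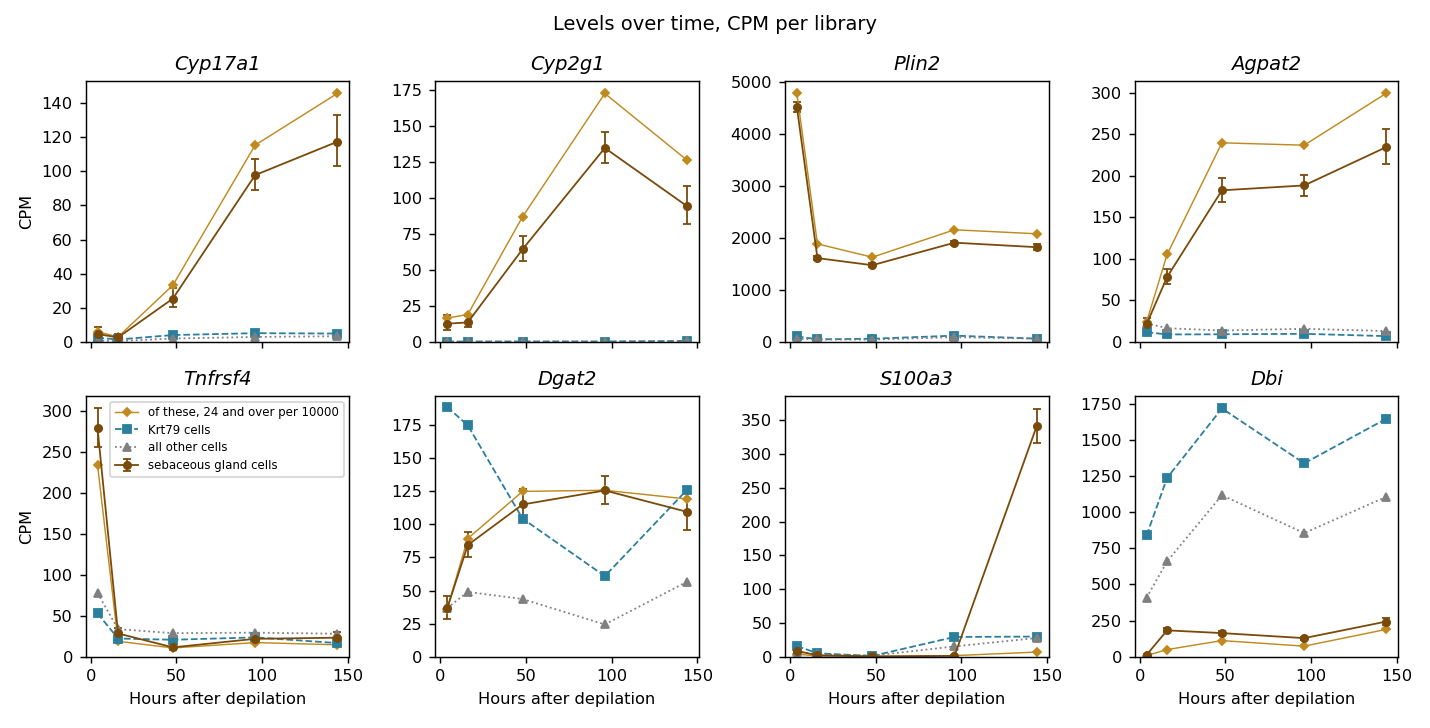
CPM against hours after depilation (4 h to 6 d) for 8 genes, in sebaceous gland cells with exact 95% intervals, in those with at least 24 rule UMIs per 10000, in Krt79 cells and in all other cells. Cyp17a1 and Cyp2g1 rise in sebaceous gland cells and stay near 0 in Krt79 and all other cells, Plin2 and Tnfrsf4 are highest at 4 h, and Agpat2 and Dgat2 are lowest at 4 h in sebaceous gland cells.

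More genes were called on another scale of time. With time as log2(hours + 1) the same test called 207 genes (2.02%), 99 with a rising and 108 with a falling trend, and 26 of 301 listed genes were among them. The 7 lipid lists had 5 of 117 genes called (4.27%) and the other 14 lists 21 of 184 (11.4%), among them 4 of 10 suprabasal, 3 of 10 cycling and 4 of 20 immediate early and heat shock genes. Plin2, at 4526 CPM at 4 h and 1612 CPM at 16 h, passed on that scale (edgeR adjusted p = 0.0332). In Krt79 cells it stood at 104, 45.6, 58.1, 117 and 59.8 CPM from 4 h to 6 d, so 4 h was again above 16 h but not above 4 d. A Plin2 UMI was found in 91 of 93 cells at 4 h and in at least 96.0% of the cells of each later library.

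Agpat2, which makes phosphatidic acid on the way to triglycerides, had the smallest adjusted p of the listed genes on that scale (edgeR adjusted p = 0.00225). It stood at 21, 78.1, 183, 189 and 235 CPM from 4 h to 6 d, with each library above the one before it, although the intervals of 2 d and 4 d overlapped. The gene had a UMI in 27 of 93, 81 of 149, 105 of 213, 150 of 343 and 65 of 149 cells. This share was highest at 16 h (54.4%) and was 49.3% at 2 d and 43.7% at 4 d, so it did not rise with the level. At 2 d, 1 cell held 16.6% of the Agpat2 UMIs, and without it the level was 154 CPM. In Krt79 cells it stood at 11.5, 8.79, 8.97, 9.55 and 6.72 CPM from 4 h to 6 d. Dgat2 at 36.6, 84.3, 115, 125 and 109 CPM from 4 h to 6 d (edgeR adjusted p = 0.0242) and Lpl at 155, 263, 479, 434 and 341 CPM from 4 h to 6 d (edgeR adjusted p = 0.0457) also passed with a rising trend, as did Krt10 (edgeR adjusted p = 0.0169) and Hspa1a (edgeR adjusted p = 0.0222). Predicted doublets held 67.0%, 38.4%, 58.7% and 80.5% of the Krt10 UMIs from 16 h to 6 d, and 1 cell held 59.3% of them at 4 h. On the scale of hours the edgeR adjusted p was above the threshold for each of these genes, while DESeq2 called Agpat2 and Hspa1a.

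A test of whether the time course differed between sebaceous gland cells and Krt79 cells, with the library as a block, called 1 of 12414 genes (0.00806%), and 1061 had an unadjusted p below 0.05. The gene was Flg, the filaggrin of the granular layer. It stood at 40.1, 26.5, 0.884, 2.66 and 19 CPM from 4 h to 6 d in sebaceous gland cells and at 169.5, 223, 35.7, 389 and 2181 CPM from 4 h to 6 d in Krt79 cells, with a difference in trend of -0.84 log2 per day (edgeR adjusted p = 0.0129). At 4 h all Flg UMIs of the sebaceous gland cells came from 1 cell and at 16 h 97.9% did, so the 2 early values were set by single cells. In the cells at 10 rule UMIs and 10 per 10000 the difference in trend was 0.54 and in those at 24 and over 0.60, so its direction turned. Cyp17a1 had an adjusted p of 0.152 and Cyp2g1 of 0.572 for this difference (edgeR), which did not pass.

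Since few genes were called, the 15 genes with the largest ratio between the highest and the lowest of the 5 libraries are described without a test. They included Lce1m, Lor, 2310046K23Rik, Hist1h2ap, Crct1, Mt4, Flg2, Tnfrsf4, Cstdc5, Cst6, Krt16, Cyp17a1, Gm10076 and Dbi. Many are genes of the cornified layers that rested on few cells, as at 16 h, where 1 cell held 99.8% of the Lce1m and 97.8% of the Lor UMIs. Hist1h2ap and Gm10076 have near copies among which reads may be split.

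Tnfrsf4 codes for the receptor OX40, best known from activated T cells. It stood at 279, 28.5, 11.5, 21.9 and 23.3 CPM from 4 h to 6 d in sebaceous gland cells. At 4 h 79 of 93 cells had a Tnfrsf4 UMI, compared with 35 of 149 at 6 d, and no cell held more than 3.95% of the UMIs at 4 h. The level was 77.7 CPM in all other cells, 52.9 CPM in Krt79 cells and 41 CPM in T cells of the same library, while T cell markers summed to 13.5 CPM in the sebaceous gland cells. The edgeR adjusted p over hours was 0.755.

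Dbi was lowest at 4 h. It stood at 13, 183, 164, 129 and 244 CPM from 4 h to 6 d in sebaceous gland cells and at 408, 659.7, 1117, 855 and 1107 CPM from 4 h to 6 d in all other cells. In the other cells, too, 4 h was the lowest of these libraries. Predicted doublets held between 46.4% and 69.8% of the Dbi UMIs from 16 h to 4 d, and without them the gene stood at 113, 115, 52.8 and 158 CPM from 16 h to 6 d.

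Mcl1, the antiapoptotic gene that the study was about, stood at 136, 87.9, 113, 85.6 and 88.4 CPM from 4 h to 6 d in sebaceous gland cells. All other cells held 284 CPM and Krt79 cells 225 CPM when pooled. Bax stood at 77.8 CPM in the pooled sebaceous gland cells and 89.5 CPM in the others, Bak1, its partner effector, at 12.5 and 13 CPM. Bcl2l1 was at 14.7 and 12.9 CPM, Bcl2 at 4.51 and 17.4 CPM, and Bnip3l, a mitophagy receptor, at 205 and 143 CPM. Of the 20 family members, 3 had no UMI in these cells (Bcl2a1d, Hrk and Bmf), 14 were tested over time and 0 passed in edgeR on the scale of hours, with 2 at an unadjusted p below 0.05 and 0 called by DESeq2. Over all genes tested, 748 of 10227 had such a p. On the log2(hours + 1) scale, where 2.02% of all genes passed, 2 of the 14 rose, the BH3-only gene Bbc3 at 5.01, 7.81, 12.7, 21.2 and 20.4 CPM from 4 h to 6 d (edgeR adjusted p = 0.0424) and Bnip3 at 2.5, 10, 25, 13.7 and 15.7 CPM from 4 h to 6 d (edgeR adjusted p = 0.0431).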

How the data were processed

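The authors counted the reads with Cell Ranger 6.1.2 on mm10, per the submitters' processing notes, and deposited filtered matrices that hold the UMI count of each gene in each barcode, not normalized. The strand and intron settings are not given in the sources used here. Cells were limited to 500 to 7000 detected genes and 10% mitochondrial UMIs. The study used the same lower and mitochondrial limits but a lower upper limit for some samples, which its methods do not name. The libraries held 72634390 to 112370376 UMIs. Doublets were scored with Scrublet in scanpy 1.11.5, taking 0.8% per 1000 barcodes of each library, and were kept in the main results. The rule, the gene lists and the tests were chosen with earlier results of these data known.

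Counts of the selected cells were summed per library. The time course was fitted with edgeR 4.0.16 in R 4.3.3 (TMM, filterByExpr, robust quasi-likelihood fit, natural cubic spline of hours, 2 degrees of freedom), with Benjamini-Hochberg adjustment over all genes tested. The 0 h library, with 9 cells where 20 were required, was left out of the fit. The comparison with Krt79 cells had the library as block. DESeq2 1.42.0 served as an alternative. The fits were tested on simulated data. CPM have exact Poisson and shares exact Clopper-Pearson 95% intervals, and levels at or under 3 UMIs of a sum were taken as at the floor. Gene positions are from GENCODE vM21.

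Named genes were the rule genes, Scd1, Mgst1 and Plin2, listed genes at 100 CPM or more, the 20 genes with the highest ratio to other cells, genes called over time or, as fewer than 10 were, also the 15 with the largest range (5 CPM added to both levels), called differences, the 5 most alike and the Bcl-2 family. Genes sharing a symbol (38 symbols) were not named, and some genes that the rule names are not reported here.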

Additional observations from a re-analysis of the deposited data

How the results depend on the processing

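The values below are those that moved. Limits of 4 UMIs and 4 per 10000 gave shares of 0.375%, 1.5%, 2.23%, 2.84%, 3.17% and 2.10% from 0 h to 6 d, and limits of 10 and 10 gave 0.0433% at 0 h and 1.44%, 1.86%, 2.36% and 1.23% from 16 h to 6 d. A mitochondrial limit of 5% left 232 cells, with shares of 0.0322%, 0.211%, 0.555%, 0.237%, 1.01% and 0.644%, so 2 d then lay below 16 h. A limit of 20%, chosen after seeing the data, gave 3.26% at 2 d and 1135 cells in all. Removing predicted doublets left the share of sebaceous gland cells within its interval in each library, while the cycling share at 4 d was 6.37% in place of 10.6% (7.53 to 14.4). With at least 1 UMI of the cycling markers, the cycling share was 14.1%, 37.8%, 33.2%, 25.9% and 24.3% from 4 h to 6 d, and without thinning 32.3%, 65.1%, 55.4%, 40.8% and 36.2%. The 7 genes called over time became 207 on the log2(hours + 1) scale, 43 with ranks of time, 1 with a linear trend alone, 2 with all 6 libraries, 87 without the count filter, 2 without the robust option, 54 in DESeq2, 17 without predicted doublets and 16 in cells at 24 per 10000 and over (chosen after seeing the data). Leaving out 1 library gave 0 to 99: 69 without 4 h, 99 without 16 h, 1 without 2 d, 1 without 4 d and 0 without 6 d, where 659 genes had an unadjusted p below 0.05. Of the 7 genes, 2 were among those called on the log2 scale and 6 among those of DESeq2. The 1 gene with a different course in Krt79 cells became 34 on the log2 scale, 0 with ranks, 0 with a linear trend, 3 with all 6 libraries, 14 without the count filter, 64 in DESeq2, 31 without doublets, 6 at 10 UMIs, 11 at 24 per 10000 and over, 0 at the mitochondrial limit of 20% and 2 against all other cells; the fits with 0 had 1279, 860 and 1088 genes at an unadjusted p below 0.05. Leaving out 1 library gave 58 to 323: 274 without 4 h, 323 without 16 h, 68 without 2 d, 58 without 4 d and 110 without 6 d. Size factors of DESeq2 within edgeR left both counts at 7 and 1. Trends that reversed were those of Psors1c2 without 6 d (-1.20 to 0.90 log2 per day with 1 library left out) and of the Flg difference at 10 UMIs (0.54) and at 24 per 10000 and over (0.60). Cyp17a1 and Cyp2g1 kept a positive trend in all 17 alternatives and passed in 9 each, with adjusted p from 1.1e-14 and 1.34e-09 to 0.695. Beyond the numbers of cells and genes that a setting leaves, the cause was not tested. No paired analysis was possible because each time point is 1 library and the labels give no shared replicate numbers. With 9 cells at 0 h and 93 at 4 h, levels under about 20.2 CPM at 0 h and 1.5 CPM at 4 h lie at or below 3 UMIs.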

Other observations

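Levels of genes of growth control, stress and breakdown in the pooled sebaceous gland cells are given here as values. The 16 ERBB receptors and ligands summed to 297 CPM, compared with 976 CPM in the other cells, and the highest was Nrg4, a ligand of ERBB4, at 60 CPM where the other cells held 1.07 CPM. Nrg4 is named after its values were seen. The 12 P53 targets summed to 779 CPM and 969.7 CPM, and Cdkn1a made up 512 and 464 CPM of these. The 16 replication genes summed to 411 and 747 CPM. Of the 16 listed genes of the lysosome and of holocrine breakdown, 15 were in the files and 4 were higher in all 6 libraries. Ctsd, a lysosomal protease, was at 719 CPM compared with 239 CPM, and Lgals3, a galectin of differentiated keratinocytes, at 850.3 compared with 1919.7 CPM.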
